A study of Mus musculus with 6 samples.

Results

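Interferon-stimulated genes were examined in CD31-positive cells sorted from mouse tumours: 47 genes taken as a list of known targets of type I interferons or of interferon gamma, of which 42 were found by symbol among the 23930 genes of the table and 38 passed the filter on low values. The list was divided into 38 type I linked genes, 8 gamma-linked GTPases of the GBP and IRG families, and Irf1, a transcription factor that both kinds of interferon induce. Ifit3, Isg15, Irgm2, Ifitm2 and Ifitm3 were not analysed here. The tumours grew for 2 weeks in the flank of C57/Bl6 mice from injected LLC cells, a mouse line derived from a Lewis lung carcinoma. There were 3 libraries from tumours of BMP9-overexpressing LLC cells (BMP9 replicates 4, 5 and 6) and 3 from tumours of control LLC cells (control replicates 1, 2 and 3). BMP9, a bone morphogenetic protein found in blood, signals to endothelial cells, and its overexpression was in the injected tumour cells, not in the cells that were sequenced. Whether each library stands for a mouse of its own is not stated, and p-values therefore measure only a spread between libraries that may be technical.

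Type I interferons bind the IFNAR receptor and lead STAT2 and IRF9 to interferon-stimulated response elements (ISRE). Interferon gamma, made mainly by T and NK cells, binds the IFNGR receptor and acts through gamma-activated sites (GAS), and it also raises IRF1, which acts on ISRE-like sequences. Many genes answer to both kinds of interferon, so the class of a gene names its usual strongest inducer and not the signal that acted in these cells.

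Levels are RPM, the reads of a gene scaled to 1000000 reads of the library. The BMP9 libraries held 1974510, 4409655 and 28380957 reads and the control libraries 4583428, 1321762 and 1999786 reads, so that 3 reads stood for 0.106 to 1.519 RPM in BMP9 and for 0.655 to 2.27 RPM in control libraries. Each fold change is the mean of log2(RPM + 1) in BMP9 libraries minus that in control libraries, and a gene is called at a Benjamini-Hochberg adjusted p under 0.05 over all 9460 genes tested with limma. Over all tested genes the median fold change was -0.24 on the log2 scale, against which single values are to be read, and -0.02 with TMM scaling. In all 1200 genes rose (12.7%) and 2130 fell (22.5%), and with TMM scaling 1580 rose and 1429 fell. BMP9 replicate 4 shared a run time stamp with the 3 control libraries, while BMP9 replicates 5 and 6 had a later one that no control library shared. Values within the earlier stamp therefore set BMP9 replicate 4 alone against the controls, under the assumption that it varies like the other libraries. With the run time stamp as covariate the fold change is that same contrast, so it is no separate check. Marker transcripts of several leukocytes differed between the groups. The 14 T and NK cell markers fell in 14 of 14 cases (sum 981 to 1690 RPM in BMP9 and 8880 to 9160 RPM in control libraries), and 13 of 14 tested macrophage and monocyte markers rose (sum over all 16 markers 19800 to 26100 RPM in BMP9 and 5000 to 7670 RPM in control libraries). Of 12 neutrophil markers 6 rose and 6 were below the filter, and of 8 platelet markers 3 rose and 4 were below it. Cd163, S100a8 and Ppbp, of the macrophage, neutrophil and platelet lists, passed the filter only through the BMP9 libraries, where they were high. S100a9, Mmp8 and Retnlg, of the neutrophil list, also needed the BMP9 libraries. The filter asks for 5 RPM in 3 libraries, and fewer control libraries reached that level. The counts that hold these genes are therefore no test of those lists. Mpo, Sox2 and Nkx2-1, among the defining markers of neutrophils and of lung or tumour epithelium, were at 0 in all libraries. The 7 epithelial and tumour cell markers together still summed to 185 to 284 RPM in BMP9 and 169 to 192 RPM in control libraries. Of the 3 of them that were tested, 1 (Krt18) rose. Of 11 dendritic cell markers 1 rose and 2 fell. These counts were near the shares of all tested genes and are no result on dendritic cells. Tcf4, a factor of plasmacytoid dendritic cells, rose to 115 ± 13.5 RPM in BMP9 libraries, against 58.5 ± 17.1 RPM in control libraries (SD, n = 3 each). Xcr1, a receptor of cross-presenting dendritic cells, fell to 5.93 ± 2.39 RPM in BMP9 libraries, against 17.0 ± 3.50 RPM in control libraries. Siglech, a receptor of plasmacytoid dendritic cells, fell to 19.3 ± 2.14 RPM in BMP9 libraries, against 44.7 ± 7.78 RPM in control libraries (SD, n = 3 each). Defining markers of endothelium were low in both groups: the 20 endothelial markers other than Pecam1 summed to 125 to 142 RPM in BMP9 and 101 to 154 RPM in control libraries, against 247 to 353 RPM and 363 to 532 RPM for Pecam1, the gene of CD31. Fewer cells of a type and less RNA per cell cannot be told apart in such pooled RNA, and the part of these cell types in the results on interferon-stimulated genes was not tested.

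The upstream sequences of 5 of these genes are shown as examples that hold matches to ISRE or GAS sequences. They are 3 GTPase genes that fell (Gbp7, Igtp, Irgm1), 1 GTPase gene whose libraries overlapped between the groups (Gbp2), and 1 type I linked gene that rose (Rsad2). Each is the 250 bases before the transcription start in RefSeq (build GRCm38.p6), 5′ to 3′ on the strand of the gene. Capitals mark matches to GAAANNGAAA, the core of an ISRE, or to TTCNNNGAA, the core of a GAS, searched on both strands.
Gbp7: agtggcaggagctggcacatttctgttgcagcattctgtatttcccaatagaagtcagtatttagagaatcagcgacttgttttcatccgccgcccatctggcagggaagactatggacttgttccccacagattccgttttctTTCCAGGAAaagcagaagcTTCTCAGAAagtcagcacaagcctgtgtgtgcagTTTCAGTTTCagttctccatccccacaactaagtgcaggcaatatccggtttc
Igtp: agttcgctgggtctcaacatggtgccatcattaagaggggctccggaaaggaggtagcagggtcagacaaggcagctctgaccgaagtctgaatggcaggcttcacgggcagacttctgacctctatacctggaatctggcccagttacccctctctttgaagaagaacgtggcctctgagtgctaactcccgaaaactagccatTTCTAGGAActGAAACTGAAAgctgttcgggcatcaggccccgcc
Irgm1: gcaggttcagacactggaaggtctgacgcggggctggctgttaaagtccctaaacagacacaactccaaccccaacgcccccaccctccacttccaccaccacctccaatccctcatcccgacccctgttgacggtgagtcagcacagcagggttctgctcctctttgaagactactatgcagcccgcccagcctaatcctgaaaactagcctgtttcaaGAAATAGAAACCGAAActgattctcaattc
Gbp2: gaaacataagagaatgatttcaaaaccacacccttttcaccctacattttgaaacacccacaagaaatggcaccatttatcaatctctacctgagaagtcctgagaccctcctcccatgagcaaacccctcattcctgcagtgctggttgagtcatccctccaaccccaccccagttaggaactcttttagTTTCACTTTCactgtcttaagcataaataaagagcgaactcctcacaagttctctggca
Rsad2: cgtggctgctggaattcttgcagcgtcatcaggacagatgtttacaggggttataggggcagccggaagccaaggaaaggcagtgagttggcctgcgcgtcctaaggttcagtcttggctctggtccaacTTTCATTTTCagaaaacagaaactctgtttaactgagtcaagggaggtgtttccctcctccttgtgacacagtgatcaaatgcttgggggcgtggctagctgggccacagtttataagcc
These windows lie at chr3:142530086-142530335 (plus strand) for Gbp7, chr11:58199306-58199555 (plus) for Igtp, chr11:48871421-48871670 (minus) for Irgm1, chr3:142620413-142620662 (plus) for Gbp2 and chr12:26456453-26456702 (minus) for Rsad2. Gbp7 held an ISRE-type match from 53 to 44 bases before the start and GAS-type matches beginning 106 and 87 bases before it. Igtp held 1 match of each type, the GAS-type from 45 to 37 and the ISRE-type from 34 to 25 bases before the start. In Irgm1 a pair of overlapping ISRE-type matches stood between 30 and 15 bases before the start, with no GAS-type match. Gbp2 and Rsad2 held 1 ISRE-type match each, beginning 59 and 120 bases before the start. Rsad2 does not stand for the called type I linked genes. Oasl2, which rose, had no match in its window. Sp100, Epsti1, Ddx58, Isg20 and Ifit2, which fell, had no ISRE-type match in any window, while Isg20 and Ifit2 had a GAS-type match.

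RefSeq gave such a window for 38 of the 47 listed genes, and none was used for Parp14, Mx1, Usp18, Mx2, Oas2, Zbp1, Dhx58, Parp9 and Rtp4. The ISRE-type sequence stood in at least 1 window of 17 of these 38 genes (44.7%), against 3.46% of all 27025 genes with a window. By class it was found in 7 of 8 GTPase genes (87.5%) and in 10 of 29 type I linked genes (34.5%). The GAS-type sequence stood in 10 of 38 genes (26.3%), against 8.13% of all genes, with 4 of 8 GTPase genes and 5 of 29 type I linked genes. The genes were listed because interferon induces them, so these shares describe the list, and a match is not shown to be a site that is used in these cells.

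Among the 38 tested genes 4 rose and 11 fell in BMP9 libraries, and the other 23 did not pass the test. Those that rose were 10.5% of the tested members, where 12.7% of all tested genes rose, and those that fell were 28.9%, where 22.5% of all tested genes fell. Called members of either direction made up 39.5%, beside 35.2% of all genes. The shares for the whole list were near the background. The GTPases had a median log2 fold change of -0.81 with 3 of 6 tested members lower and none higher. The type I linked genes had a median of 0.01 with 8 of 31 lower (25.8%) and 4 of 31 higher (12.9%). Groups did not overlap for 16 of the 38 members, as for 48.1% of all tested genes. Ifit2, counted among the type I linked genes that fell, passed the filter only through the control libraries, where it was high. That gene is no support for these counts. With TMM scaling the medians were -0.58 for the GTPases and 0.24 for the type I linked genes, and 5 members were lower (4 of them type I linked, 1 a GTPase). The number lower was 5 without BMP9 replicate 6, 7 without control replicate 1 and 16 with BMP9 replicate 5 left out, and for the GTPases 1 without BMP9 replicate 6 or control replicate 1. Of all tested genes 1555, 1367 and 1882 were lower in those runs, against 2130 with all libraries. The number higher was 2 without BMP9 replicate 5, control replicate 1 or control replicate 2. Of all tested genes 1098, 944 and 945 were higher in those runs, against 1200 with all libraries. Within the earlier run time stamp the medians were -0.97 for the GTPases and 0.02 for the type I linked genes, beside -0.20 for all tested genes.

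**Figure D1:**
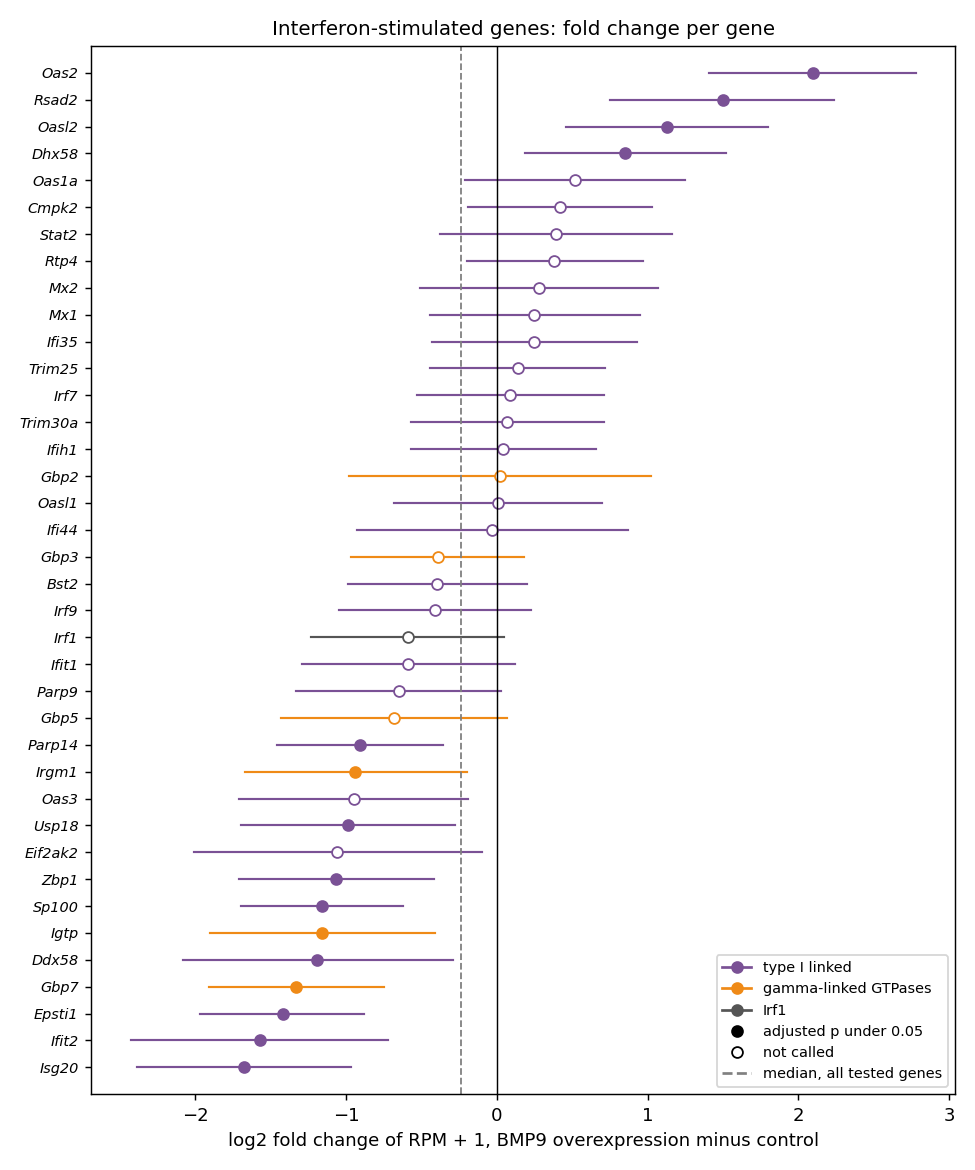
Log2 fold change of RPM + 1 (horizontal axis), BMP9 overexpression minus control, for each of the 38 tested interferon-stimulated genes, with its 95% confidence interval from the limma fit (3 libraries per group). Filled points passed an adjusted p of 0.05, and the dashed line is the median of all tested genes, -0.24. Oas2 (2.10) stands at the top and Isg20 (-1.68) at the bottom, and the GTPases in orange lie between 0.02 and -1.33.

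The transcript of interferon gamma itself fell. Ifng was at 17.2, 46.9 and 17.2 RPM in BMP9 replicates 4, 5 and 6, against 83.8, 119 and 69.5 RPM in control replicates 1, 2 and 3. The groups did not overlap, and BMP9 replicate 5 lay highest of its group. The log2 fold change was -1.83 (SE 0.38, limma adjusted p = 0.0018), and -2.30 within the earlier stamp. The T and NK cell markers, whose cells make this transcript, fell alongside it, and their part in the change was not tested. Of the other 9 interferon ligand genes with a row, Ifna5, Ifna12, Ifne and Ifnk had no read in any library. Ifnb1, the gene of interferon beta, had 26 reads in all BMP9 libraries together (0.506, 0.907 and 0.74 RPM) and 0 reads in the control libraries, which allows up to 0.38 RPM over that group. Ifna2, Ifna4, Ifnl2 and Ifnl3 reached at most 0.5 RPM in any library. All ligand genes other than Ifng were below the filter and were not tested.

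Most receptor genes did not pass the test. Ifngr1, the ligand-binding chain of the interferon gamma receptor, was at 1403, 1739 and 2021 RPM in BMP9 and 1984, 2292 and 2560 RPM in control libraries (log2 fold change -0.41, 95% CI -1.02 to 0.19, limma adjusted p = 0.28). Ifngr2, its signalling chain, rose, with 216, 205 and 204 RPM in BMP9 against 70.0, 98.4 and 103 RPM in control libraries (1.21, SE 0.26, adjusted p = 0.0024). Il10rb, a chain shared by the receptors of interferon lambda and IL-10, rose by 1.83 (SE 0.25), with no overlap of groups. Ifnlr1, the other chain of the lambda receptor, was below the filter. Ifnar1 and Ifnar2, the chains of the type I receptor, had log2 fold changes of -0.29 and 0.44 with overlapping groups, and neither passed the test (limma adjusted p = 0.40 and 0.25). In this list of 10 tested receptor and signalling genes 2 rose and none fell (median 0.07), where 12.7% of all tested genes rose and 22.5% fell.

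The GTPases of the GBP and IRG families act on the membranes of vacuoles that hold intracellular parasites and bacteria, and interferon gamma is their strongest inducer. Gbp7 (chromosome 3, 142530342 to 142550149, mm10) had the largest decrease of the class. It was at 122, 78.9 and 83.3 RPM in BMP9 libraries, against 233, 272 and 204 RPM in control libraries. Every BMP9 library lay below every control library, with a log2 fold change of -1.33 (SE 0.27, limma adjusted p = 0.0016). Within the earlier stamp it was -0.94, and the call was lost.

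Igtp, also known as Irgm3, was at 27.3, 54.2 and 33.3 RPM in BMP9 and 129, 77.9 and 57.0 RPM in control libraries (chromosome 11, 58199556 to 58207591). The highest BMP9 library lay just under the lowest control library, and the change was -1.16 (SE 0.35, adjusted p = 0.018). That call was lost with TMM (-0.93), edgeR (-0.93) and no filter (-1.16), without BMP9 replicate 6 (-1.09) and without control replicate 1 (-0.84). The annotated span of Irgm2 overlaps Igtp, and members of both families resemble each other in sequence, so some reads could come from a neighbour. Irgm1, which guards host membranes against the other IRG proteins, was at 22.3, 30.8 and 12.2 RPM in BMP9 and 38.0, 38.6 and 43.5 RPM in control libraries. Its groups did not overlap, and the change of -0.94 (SE 0.35, adjusted p = 0.047) was close to the threshold. The call was lost with TMM (-0.71), edgeR (-0.64), DESeq2 (-0.65), quantile scaling (-0.68) and no filter (-0.94). It was also lost within the earlier stamp and with the stamp as covariate (both -0.81). The same held without BMP9 replicate 6 (-0.59) and without control replicate 1 (-0.97), 2 (-0.96) or 3 (-0.88).

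The other 3 tested GTPases were not called. Gbp5, which promotes inflammasome assembly, was at 41.0, 88.9 and 40.9 RPM in BMP9 and 57.2, 103 and 107 RPM in control libraries (log2 fold change -0.68, 95% CI -1.43 to 0.07). Its groups overlapped through BMP9 replicate 5, and without that library it was called at -1.05. Gbp3 was at 75.0, 85.3 and 61.3 RPM in BMP9 and 107, 81.0 and 104 RPM in control libraries (-0.39, 95% CI -0.97 to 0.18). Gbp2 was the most variable of the class, with 26.3, 150 and 40.5 RPM in BMP9 against 60.0, 59.8 and 43.5 RPM in control libraries (0.02, 95% CI -0.98 to 1.02). BMP9 replicates 4 and 6 lay below all control libraries and replicate 5 far above them, and the change was -0.70 without replicate 5 and -1.0 within the earlier stamp. Without control replicate 3 it was -0.13. Ifi47 was below the filter, with at most 0.5 RPM in any library. Gbp4, a guanylate-binding protein outside the list of 47, fell by 2.21 on the log2 scale (SE 0.34, limma adjusted p = 0.00018), with 67.9, 187 and 78.7 RPM in BMP9 against 515, 467 and 420 RPM in control libraries. Gbp9 was at 38.0, 155 and 77.4 RPM in BMP9 and 90.3, 59.0 and 61.0 RPM in control libraries and was not called (0.16, adjusted p = 0.78).

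**Figure D2:**
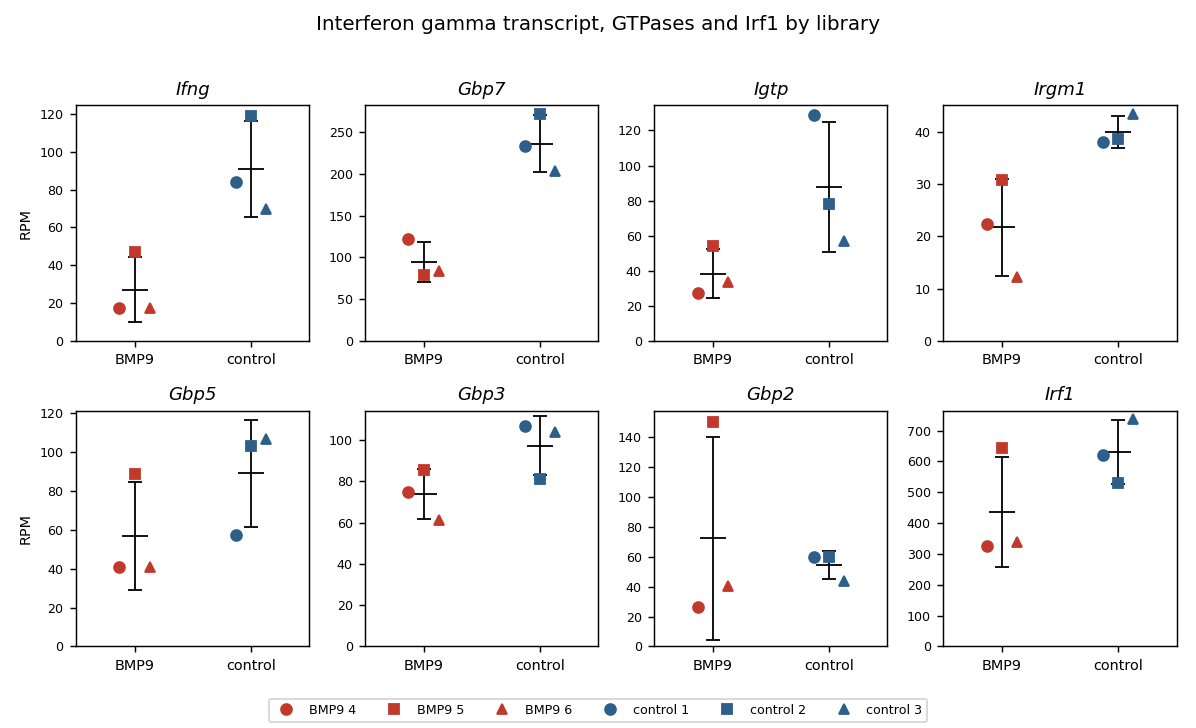
RPM (vertical axes, from 0) of Ifng, the 6 tested GTPases and Irf1 in each of the 3 BMP9 (left, red) and 3 control (right, blue) libraries, with mean and SD in black. BMP9 replicate 5 (red square) is the highest BMP9 library in every panel except that of Gbp7, for example 150 RPM of Gbp2 against 26.3 and 40.5 RPM in the other BMP9 libraries.

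Within the BMP9 group the interferon-stimulated genes were not at one level. BMP9 replicate 5 had the highest value of the 3 for 28 of the 38 tested members (73.7%), while it was highest for 31.7% of all tested genes. It was the highest for 5 of 6 GTPases and 22 of 31 type I linked genes. The summed level of all listed genes was 2990, 3970 and 2740 RPM in BMP9 replicates 4, 5 and 6, against 4480, 4120 and 4390 RPM in control libraries. Cxcl9 and Cxcl10, chemokines that interferon gamma induces, were also highest in BMP9 replicate 5 within their group. Cxcl9 was at 22.3, 322 and 33.8 RPM in BMP9 and 41.2, 127 and 82.5 RPM in control libraries, and Cxcl10 at 93.2, 420 and 183 RPM in BMP9 and 110, 151 and 134 RPM in control libraries. Neither was called (limma adjusted p = 0.79 and 0.30). Without BMP9 replicate 5 the change of Cxcl9 was -1.43 and was called, as it was within the earlier stamp (-1.72), while without BMP9 replicate 4 Cxcl10 was called at 1.08. The summed T and NK cell markers were 1690, 1690 and 981 RPM in BMP9 replicates 4, 5 and 6, while single markers differed between these libraries, as Cd4 (32.9, 126 and 28.3 RPM) and Cd2 (242, 132 and 91.4 RPM) did, and their part in the level of replicate 5 was not tested. Leaving out a control library did not lead to a call of either chemokine.

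The members that transmit or limit the interferon signal were mostly not called. Irf1 (chromosome 11, 53770014 to 53778374) was at 326, 642 and 340 RPM in BMP9 and 622, 530 and 739 RPM in control libraries. Only BMP9 replicate 5 reached the range of the controls, and the change of -0.59 (95% CI -1.23 to 0.05) was called at -0.90 once that library was left out. Irf7, which drives the genes of interferon alpha, was at 156, 114 and 92.0 RPM in BMP9 and 125, 84.7 and 129 RPM in control libraries (0.09, 95% CI -0.53 to 0.71). Irf9, the DNA-binding partner of STAT2, was at 47.6, 29.9 and 30.2 RPM in BMP9 and 53.0, 46.2 and 42.0 RPM in control libraries (-0.41, 95% CI -1.05 to 0.23), and 0.02 within the earlier stamp. Stat2 was at 159, 61.9 and 55.1 RPM in BMP9 and 66.1, 51.4 and 70.0 RPM in control libraries (0.39, 95% CI -0.38 to 1.16). BMP9 replicate 4 alone lay above the control range, and the change was 1.35 within the earlier stamp and -0.08 without that library. Usp18, which removes ISG15 from proteins and shuts down IFNAR signalling, fell by 0.99 on the log2 scale (SE 0.33, limma adjusted p = 0.031), with 15.7, 24.0 and 15.9 RPM in BMP9 against 27.5, 50.7 and 36.5 RPM in control libraries. Its groups did not overlap, but its call was lost with TMM (-0.76), edgeR (-0.77), DESeq2 (-0.79), quantile scaling (-0.71) and no filter (-0.99). It was also lost within the earlier stamp (-1.19) and without BMP9 replicate 6 (-0.90) or control replicate 2 (-0.77) or 3 (-1.0).

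The enzymes of the OAS family bind double-stranded RNA and make the short oligoadenylates that activate RNase L. Of its 5 genes on the list 2 rose and none fell, where 12.7% of all tested genes rose and 22.5% fell. So few genes allow no statement on the family. Oas2 (chromosome 5, 120730333 to 120749853) rose most of all members. It was at 135, 190 and 120 RPM in BMP9 libraries, against 40.6, 21.2 and 42.5 RPM in control libraries. The lowest BMP9 library lay well above the highest control library, and the log2 fold change was 2.10 (SE 0.32, limma adjusted p = 0.00018). Oasl2, an OAS-like protein, also rose, with 192, 339 and 188 RPM in BMP9 against 93.2, 81.7 and 152 RPM in control libraries (1.13, SE 0.31, adjusted p = 0.012). That call was lost within the earlier stamp (0.87) and without BMP9 replicate 5 (0.85) or control replicate 1 (1.04) or 2 (0.95). Oas3, the neighbour of Oas2 on chromosome 5, was at 29.9, 61.5 and 23.9 RPM in BMP9 and 92.3, 52.2 and 69.0 RPM in control libraries. BMP9 replicate 5 lay within the control range, and the change of -0.95 narrowly missed the test (adjusted p = 0.0502), while it was called without BMP9 replicate 5 (-1.34), without control replicate 2 (-1.15) and within the earlier stamp (-1.19). Oas1a, at 53.2, 66.2 and 28.3 RPM in BMP9 and 26.0, 32.5 and 39.0 RPM in control libraries, was not called (0.52, 95% CI -0.21 to 1.25), nor was Oasl1, at 24.3, 27.9 and 15.9 RPM in BMP9 and 22.3, 24.2 and 19.5 RPM in control libraries (0.01, 95% CI -0.68 to 0.70). Oas1a has near-identical copies, so the origin of its reads is uncertain.

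The ratio of 2 genes within a library does not depend on how libraries are scaled. Oas2 stood to Oas3 as 4.51, 3.09 and 5.02 in BMP9 replicates 4, 5 and 6, against 0.44, 0.406 and 0.616 in control replicates 1, 2 and 3. All BMP9 ratios exceeded all control ratios, a difference of 3.10 in mean log2 ratio. The pairs set side by side were chosen after their values were seen and are given without a test, and a ratio shows unequal change without saying which gene moved. Of 6 pairs computed the groups overlapped in 1, Gbp2 over Gbp7. Oas2 over Gbp7, which joins the largest increase of the type I linked genes to the largest decrease of the GTPases, was 1.11, 2.41 and 1.44 in BMP9 and 0.174, 0.0778 and 0.209 in control libraries. Each of these genes alone had groups without overlap, in opposite directions, so their ratio could not overlap.

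Among the RNA sensors of the RIG-I family 1 rose and 1 fell, where 12.7% of all tested genes rose and 22.5% fell. Dhx58, which encodes LGP2, a helicase that tunes the other sensors, rose by 0.85 (SE 0.31, limma adjusted p = 0.045), with 50.1, 52.6 and 31.3 RPM in BMP9 against 26.8, 24.2 and 20.5 RPM in control libraries. Groups did not overlap, but the call was lost within the earlier stamp (1.05), with array weights (0.49) and without BMP9 replicate 4 (0.75) or 5 (0.72) or control replicate 1 (0.94), 2 (0.87) or 3 (0.75). Ddx58, which encodes RIG-I itself, fell by 1.19 on the log2 scale (SE 0.42, adjusted p = 0.039), with 14.7, 29.5 and 11.3 RPM in BMP9 against 56.7, 21.2 and 53.0 RPM in control libraries. Here the groups overlapped, since control replicate 2 lay under BMP9 replicate 5. The call was lost with TMM (-0.96), edgeR (-0.99), DESeq2 (-0.99), quantile scaling (-0.93) and no filter (-1.19). It was also lost within the earlier stamp and with the stamp as covariate (both -1.39). The same held without BMP9 replicate 4 (-1.09) or 6 (-0.91) or control replicate 1 (-0.94) or 3 (-0.99). Ifih1, which encodes the sensor MDA5, was at 83.6, 53.5 and 95.1 RPM in BMP9 and 75.9, 77.9 and 65.5 RPM in control libraries (0.04, 95% CI -0.57 to 0.66). The Dhx58 to Ddx58 ratio was 3.41, 1.78 and 2.78 in BMP9 and 0.473, 1.14 and 0.387 in control libraries, again without overlap.

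Of the other sensors, Zbp1, which detects Z-form nucleic acid and can start necroptosis, fell to 26.8, 42.2 and 29.9 RPM in BMP9 libraries, against 53.2, 84.0 and 73.0 RPM in control libraries (-1.07, SE 0.30, limma adjusted p = 0.013). The call was lost with TMM (-0.84), without BMP9 replicate 6 (-1.01) and without control replicate 2 (-0.93). Eif2ak2, which encodes the kinase PKR, was at 6.08, 24.7 and 19.0 RPM in BMP9 and 44.5, 32.5 and 20.5 RPM in control libraries (-1.06, 95% CI -2.01 to -0.10, adjusted p = 0.079). It was called without BMP9 replicate 5 (-1.43) and within the earlier stamp (-2.18).

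Among the antiviral effectors Rsad2 and Isg20 moved apart. Rsad2, the gene of viperin, an enzyme that makes a chain-terminating nucleotide, rose to 32.4, 51.0 and 24.3 RPM in BMP9 libraries, against 12.4, 9.08 and 13.5 RPM in control libraries (1.5, SE 0.35, limma adjusted p = 0.004). Its groups did not overlap. Cmpk2, the neighbouring gene on chromosome 12, had 67.9, 91.8 and 75.6 RPM in BMP9 and 58.5, 44.6 and 74.5 RPM in control libraries and was not called (0.42, 95% CI -0.19 to 1.03). Isg20, an exonuclease, had the largest decrease of all members, with 28.4, 17.9 and 17.3 RPM in BMP9 against 60.4, 103 and 51.5 RPM in control libraries (-1.68, SE 0.34, adjusted p = 0.0014). Every BMP9 library lay below every control library.

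Ifit2, an RNA-binding protein that restrains translation of foreign RNA, fell to 5.57, 9.07 and 2.75 RPM in BMP9 libraries, against 22.7, 14.4 and 17.0 RPM in control libraries (-1.57, SE 0.40, limma adjusted p = 0.0073). The call was lost without BMP9 replicate 6 (-1.20). Fewer than 3 BMP9 libraries reached 5 RPM of Ifit2, so it passed the filter only through the control libraries, where it was high. Its call is therefore no support for the count of members that fell. Ifit1, of the same cluster on chromosome 19, was at 44.6, 91.6 and 92.0 RPM in BMP9 and 104, 84.0 and 148 RPM in control libraries (-0.59, 95% CI -1.29 to 0.12), and -1.27 within the earlier stamp, where it was called. The Rsad2 to Ifit2 ratio was 5.82, 5.62 and 8.86 in BMP9 and 0.548, 0.632 and 0.794 in control libraries, a difference of 3.35 in mean log2 ratio. Both genes are usual type I targets. Every BMP9 library lay above every control library for Rsad2 and below every control library for Ifit2, so the ratios could not overlap. They are therefore no test of the pair.

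**Figure D3:**
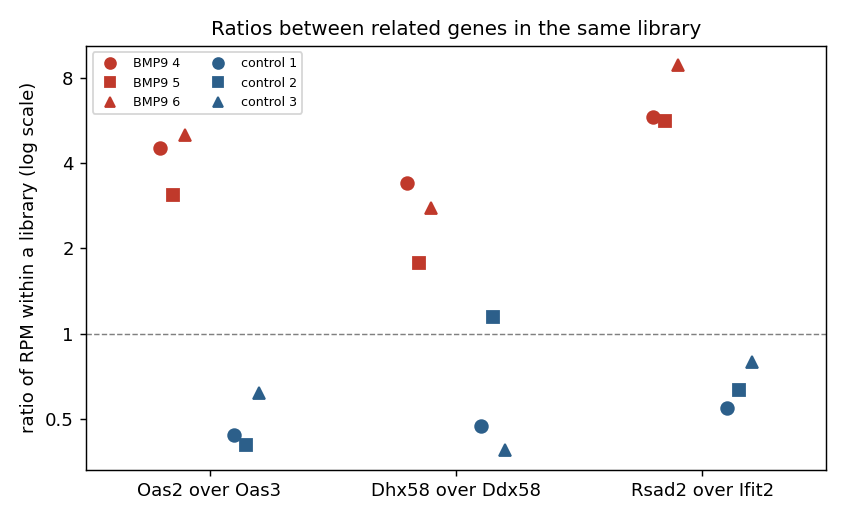
Ratio of RPM between 2 genes of the same library (vertical axis, log scale), for 3 BMP9 (red, left of each pair) and 3 control (blue) libraries. In each of the 3 pairs all BMP9 ratios lie above all control ratios, for Oas2 over Oas3 at 3.09 to 5.02 against 0.406 to 0.616. The pairs were chosen after their values were seen. For Rsad2 over Ifit2 the ratios could not overlap, since each gene alone had groups without overlap in opposite directions.

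Mx1 and Mx2, dynamin-like antiviral GTPases that are defective in most laboratory mouse strains, did not pass the test. Mx1 was at 45.1, 67.8 and 42.4 RPM in BMP9 and 45.2, 28.8 and 58.0 RPM in control libraries (0.25, 95% CI -0.44 to 0.95). Mx2, annotated as a polymorphic pseudogene, was at 9.62, 23.1 and 11.8 RPM in BMP9 and 12.0, 9.84 and 12.0 RPM in control libraries (0.28, 95% CI -0.51 to 1.07). Bst2, the tether that holds budding viruses at the cell surface, was at 148, 159 and 88.8 RPM in BMP9 and 170, 172 and 163 RPM in control libraries. Its groups did not overlap, but the change of -0.40 was not called (95% CI -0.99 to 0.20).

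Epsti1 and Sp100 fell with little spread between libraries. Epsti1, which takes part in macrophage activation, was at 229, 266 and 264 RPM in BMP9 libraries, against 770, 707 and 574 RPM in control libraries (-1.42, SE 0.25, limma adjusted p = 0.00061). Sp100, a component of nuclear PML bodies, was at 205, 145 and 177 RPM in BMP9 and 365, 402 and 401 RPM in control libraries (-1.16, SE 0.25, adjusted p = 0.0027). In both genes the replicates lay close together and the groups far apart. Parp14, a mono-ADP-ribosyltransferase, fell by 0.91 (SE 0.26, adjusted p = 0.014), with 88.1, 110 and 94.8 RPM in BMP9 against 221, 170 and 166 RPM in control libraries. Its call was lost with TMM (-0.68) and without control replicate 1 (-0.78). Parp9, its neighbour on chromosome 16, was at 77.0, 183 and 137 RPM in BMP9 and 196, 241 and 158 RPM in control libraries (-0.65, 95% CI -1.33 to 0.03) and was called without BMP9 replicate 5 (-0.92) and within the earlier stamp (-1.33).

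**Figure D4:**
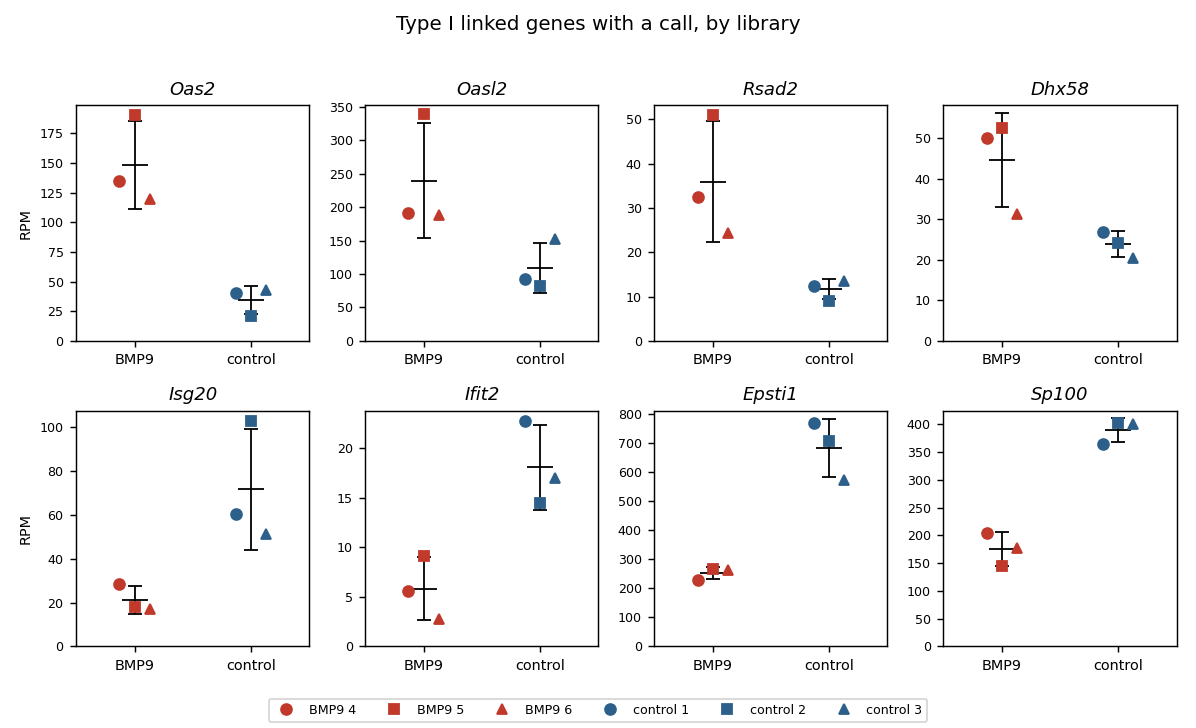
RPM (vertical axes, from 0) of 4 type I linked genes that rose (Oas2, Oasl2, Rsad2, Dhx58) and 4 that fell (Isg20, Ifit2, Epsti1, Sp100), in each of the 3 BMP9 (left, red) and 3 control (right, blue) libraries, with mean and SD in black. Groups do not overlap in any panel, and Epsti1 averaged 253 RPM in BMP9 and 684 RPM in control libraries.

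The remaining tested members had log2 fold changes between -0.03 and 0.38 and did not pass the test. They were Ifi44, Ifi35, the TRIM family members Trim25 and Trim30a, and Rtp4. Ifi44 was at 9.12, 9.07 and 3.35 RPM in BMP9 and 5.67, 9.84 and 5.5 RPM in control libraries (-0.03, 95% CI -0.93 to 0.87). Ifi35 was at 56.2, 85.9 and 44.9 RPM in BMP9 and 49.1, 38.6 and 67.0 RPM in control libraries (0.25, 95% CI -0.43 to 0.93). Trim30a was at 149, 204 and 145 RPM in BMP9 and 184, 103 and 203 RPM in control libraries (0.07, 95% CI -0.57 to 0.71). In these 3 genes the groups overlapped, as they did for Trim25 (0.14, 95% CI -0.44 to 0.72), a ubiquitin ligase that acts on RIG-I. Rtp4, which binds viral RNA, was at 101, 149 and 92.0 RPM in BMP9 and 85.3, 84.0 and 86.5 RPM in control libraries, without overlap but also without a call (0.38, 95% CI -0.20 to 0.97). Xaf1 (1.36 to 8.61 RPM in BMP9 and 3.27 to 6.05 RPM in control libraries), Samd9l (1.02 to 5.22 and 0 to 2.62 RPM) and Herc6 (0 to 4.08 and 3.78 to 9.00 RPM) were below the filter.

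Regulators upstream of these genes rose or fell. Irf8, a factor of dendritic cells, monocytes and B cells that interferon gamma induces, fell to 440, 606 and 480 RPM in BMP9 libraries, against 1734, 1369 and 1039 RPM in control libraries (-1.42, SE 0.28, limma adjusted p = 0.0013). Irf5, a factor downstream of Toll-like receptors, rose by 0.98 (SE 0.25). Tlr7 and Tlr9, sensors of single-stranded RNA and of CpG DNA in endosomes, rose by 1.60 (SE 0.35) and 1.58 (SE 0.36), each without overlap of groups. Tbk1 and Ikbke, kinases that activate IRF3 and IRF7, rose by 0.86 and 0.97, but Tbk1 was not called within the earlier stamp (0.72), without BMP9 replicate 5 (0.74) or without control replicate 3 (0.80). Ikbke was not called without BMP9 replicate 5 (0.87) or control replicate 2 (0.77) or 3 (0.96), and Tlr7 was not called within the earlier stamp (1.19). In the list of 16 tested sensing genes and other IRFs 5 rose and 1 fell (median 0.30), where 12.7% of all tested genes rose and 22.5% fell. Macrophage and monocyte markers rose in the same libraries, and their part in these increases was not tested.

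Other targets of interferon, outside the list of 47, were counted in the same way. Of 14 tested gamma-linked genes, 8 fell, Irf8 among them, and 2 rose (median -1.05), where 22.5% of all tested genes fell and 12.7% rose. Wars, a tRNA synthetase that interferon gamma induces, was at 48.1, 65.8 and 60.3 RPM in BMP9 and 164, 136 and 136 RPM in control libraries (-1.32, SE 0.27, limma adjusted p = 0.0015), and Psmb10, a subunit of the immunoproteasome, fell by 1.34 (SE 0.26). Serpina3g, a protease inhibitor, fell by 1.80 (SE 0.38). Nlrc5, which drives MHC class I genes, fell by 1.40, and Psmb8, Psmb9 and Tap1, which make and carry peptides for MHC class I, fell by 1.0, 1.35 and 1.10 on the log2 scale. Within the earlier stamp the changes of Psmb8, Psmb9 and Tap1 were -0.51, -0.49 and -0.46, and their calls were lost. Without BMP9 replicate 6 they were -0.85, -1.05 and -0.74, and Tap1 was -0.89 without control replicate 1, again with the calls lost. Tap1 was also not called with TMM (-0.86), edgeR (-0.79) or DESeq2 (-0.80), nor was Psmb8 with edgeR (-0.72). Those that rose were Ciita, the master regulator of MHC class II genes (1.24, SE 0.29), and Nos2, the inducible nitric oxide synthase of macrophages, at 21.8, 7.94 and 9.69 RPM in BMP9 and 0.873, 0.757 and 0 RPM in control libraries, where it was near the limit of detection. Nos2 passed the filter only through the BMP9 libraries, where it was high, so that it is no support for the count. Ciita was not called within the earlier stamp (0.92). Of 34 tested type I linked genes, 6 rose and 7 fell (median -0.30). These were near the shares of all tested genes that rose (12.7%) and fell (22.5%) and their median of -0.24. Oas1g passed the filter only through the BMP9 libraries, where it was high. Oas1b and Trim12c passed only through the control libraries, where they were high, so these calls are no support for the counts. Schlafen genes, regulators of growth and of viral translation that lie together on chromosome 11, were among those that rose and those that fell. Slfn4 rose by 2.59 (SE 0.29, adjusted p = 1.8e-05), while Slfn9 fell by 1.79 on the log2 scale (SE 0.30). Slfn4 was at 348, 292 and 207 RPM in BMP9 and 34.7, 45.4 and 57.5 RPM in control libraries, and Slfn9 at 15.2, 17.7 and 18.6 RPM in BMP9 and 75.5, 49.9 and 62.0 RPM in control libraries. Mov10, an RNA helicase, fell by 1.82 (SE 0.32). Oas1b, whose truncated form in most laboratory strains leaves mice open to flaviviruses, fell by 1.5 on the log2 scale, and its call was lost within the earlier stamp (-1.11). Slfn2, which keeps T cells and monocytes quiescent, rose by 1.04, but was not called within the earlier stamp (0.91).

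The other calls of that list were each lost when at least 1 library was left out. Slfn1 (0.90) was not called without control replicate 1 (0.71). Ifi204 (1.30), a nucleic acid sensor of the PYHIN family, was not called without BMP9 replicate 4 (0.81) or control replicate 1 (1.05). Oas1g (1.33), one of the clustered Oas1 genes, was not called without BMP9 replicate 4 (1.22) or 5 (1.07) or control replicate 1 (1.30) or 2 (0.98). Slfn5 (0.82) was not called without BMP9 replicate 4 (0.53) or 6 (0.96) or any 1 of the control libraries (0.73 to 0.97). Among those that fell, Trim21 (-0.92), a cytosolic antibody receptor, was not called without BMP9 replicate 5 (-0.83) or 6 (-0.79) or control replicate 1 (-0.98) or 3 (-0.77). Trim12c (-1.52) was not called without BMP9 replicate 4 (-0.82) or control replicate 1 (-1.44) or 2 (-1.56). Dtx3l (-1.01), whose protein pairs with that of Parp9, was not called without BMP9 replicate 6 (-0.87) or any 1 of the control libraries (-1.06 to -0.94). Slfn8 (-0.83) was not called without BMP9 replicate 5 (-0.60) or 6 (-0.82) or any 1 of the control libraries (-0.91 to -0.77). Within the earlier stamp Oas1g (1.56), Trim21 (-0.48) and Slfn8 (-0.33) were also not called. With TMM the calls of Trim21 (-0.69), Trim12c (-1.30), Dtx3l (-0.79) and Slfn8 (-0.60) were lost as well. The same 4 genes were not called with quantile scaling, edgeR, DESeq2 or no filter. Among those that rose, Slfn1, Ifi204, Oas1g and Slfn5 were also not called with no filter. Slfn8 and Slfn9 resemble each other closely, as do the Oas1 genes, so reads may be split between them.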

How the data were processed

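The list of 47 genes, its division and the other lists were chosen with earlier results of these data known. RNA of sorted CD31-positive cells was turned into libraries with the Ion AmpliSeq Transcriptome kit for mouse, per the labels' protocols. That panel amplifies a short segment of each gene, so levels compare only roughly between genes. Reads were mapped to mm10, according to the submitters' processing notes, with an aligner and counter not named there. The authors deposited RPM values, which is reads scaled to the library total. Whole reads were recovered for 100% of values (within 0.05 reads). Reads lack molecular identifiers, and a floor of 3 reads covers counting error only.

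Groups came from sample titles. The test was limma-trend (limma 3.58.1 in R 4.3.3) on log2(RPM + 1) over the 9460 genes that reached 5 RPM in 3 or more libraries, with Benjamini-Hochberg adjustment over all of them and a threshold of 0.05. Every adjusted p is from this test, and the procedure was tested on simulated data. The alternatives were pseudocounts of 0.5 and 5, no filter or a mean of 20 RPM or more, TMM or quantile scaling, array weights, a constant prior variance, the run time stamp (as covariate, or its earlier value alone), each library left out, and edgeR 4.0.16 and DESeq2 1.42.0 on recovered reads. These last called 3114 and 3317 genes, where limma called 3330.

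By rule, values in every library are given for GTPases, for factors and signal control members, for the 6 largest increases and decreases, and for members whose call or direction depends on an alternative; of the other pathway lists, values are given for called genes, ligands and receptors. Rtp4, Cxcl9, Cxcl10, Gbp9 and the gene pairs fall outside the rule and were picked with values in view. Gene coordinates are from GENCODE M21 (mm10) and upstream sequences from RefSeq (GRCm38.p6).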

Additional observations from a re-analysis of the deposited data

How the results depend on the processing

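Of the 15 called members, none changed direction under the 18 alternatives, and 5 (Oas2, Rsad2, Isg20, Epsti1 and Sp100) were called under all of them. Beyond the losses given above, the calls of Zbp1 (-0.82) and Parp14 (-0.66) were lost with edgeR. With no filter those of Oasl2 (1.13), Dhx58 (0.85) and Ifit2 (-1.57) were lost. With the run time stamp as covariate those of Oasl2 (0.87) and Dhx58 (1.05) were lost. The fold changes of that alternative equal those of the earlier stamp alone, so these alternatives are no separate checks of direction. Of 23 uncalled members 10 were called under some alternative. The count of members lower, 11, was 5 with TMM, 5 with edgeR, 6 with no filter and 18 with array weights, and 5 to 16 with 1 library left out. Over all tested genes the count lower, 2130, was 1429 with TMM, 1421 with edgeR and 3351 with array weights. It was 1512 of 18274 with no filter, and 1367 to 2312 with 1 library left out. The count of members higher, 4, was 2 with no filter and 2 to 4 with 1 library left out. Over all tested genes the count higher, 1200, was 848 with no filter and 933 to 1240 with 1 library left out. Type I linked genes lower, 8, were 4 with TMM or edgeR, 5 with no filter and 4 to 11 with 1 library left out; those higher, 4, were 2 with no filter and 2 to 4 with 1 library left out. GTPases lower, 3, were 1 with TMM, edgeR, no filter or the earlier stamp alone, 5 with array weights, and 1 to 4 with 1 library left out. The type I linked median of 0.01 was 0.24 with TMM, 0.28 with DESeq2, 0.29 with edgeR, 0.18 with quantile scaling, -0.30 with array weights and -0.15 to 0.13 with 1 library left out. The median of all tested genes, -0.24, was -0.02 with TMM, 0.0 with DESeq2, 0.02 with edgeR and -0.04 with quantile scaling. With array weights that median was -0.26, and with 1 library left out -0.29 to -0.21. The GTPase median of -0.81 lay between -1.13 and -0.51 under all alternatives. The cause of these changes was not tested.

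Uncalled genes that changed sign were as follows. With array weights Gbp2 was -0.21, Ifi35 -0.12, Irf7 -0.30, Mx1 -0.06, Oasl1 -0.29, Stat2 -0.14 and Trim30a -0.22. With the run time stamp as covariate or its earlier value alone Gbp2 was -1.0, Ifi44 0.38, Irf9 0.02, Mx2 -0.20, Trim30a -0.07, Cxcl10 -0.48 and Gbp9 -0.84. Ifi44 was also 0.26 with DESeq2, 0.25 with edgeR, 0.17 with TMM and 0.34 with quantile scaling, and Cxcl9 was 0.83 with DESeq2 and 0.87 with edgeR. With 1 library left out the ranges were -0.70 to 0.53 for Gbp2, -0.00 to 0.46 for Ifi35, -0.23 to 0.38 for Ifi44, -0.12 to 0.29 for Ifih1, -0.11 to 0.27 for Irf7, -0.02 to 0.48 for Mx1, -0.07 to 0.52 for Mx2, -0.15 to 0.24 for Oasl1, -0.08 to 0.67 for Stat2, -0.23 to 0.25 for Trim30a, -1.43 to 0.47 for Cxcl9 and -0.34 to 0.66 for Gbp9. No paired analysis was possible because the groups share no replicate numbers. With 3 libraries a group and 1321762 to 28380957 reads, genes of a few RPM were not testable.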
